A study of Tupaia belangeri with 6 samples.

Results

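The 10 genes described here, CSF1R, P2RY12, APBB1IP, PTPRC, BLNK, TIMD4, INPP5D, TLR4, DOCK8 and IKZF1, carry the identity of homeostatic (surveying) microglia and of related myeloid cells. They were found by their symbols among the 83605 features of the hippocampal single-nucleus matrices, where each of the 10 symbols named 1 feature. The list was drawn up with earlier results of these data known. Nuclei of the hippocampus of tree shrews (TSs, *Tupaia belangeri*), small mammals close to primates, were sequenced with a droplet-based 3′ assay whose unit of count is the unique molecular identifier (UMI), a tag that lets PCR copies of an RNA be counted once. The libraries came from 3 ALP TSs (titled AD in the labels) and 3 control TSs (titled Normal), with 1 library per animal. ALP stands for Alzheimer's-like pathology of natural aging, so that no transgene, lesion or drug separates the groups. According to the methods, the animals came from a cohort of naturally aging TSs, and the ALP TSs were picked by their performance in a maze, so that the groups differ in behaviour by choice. The study describes the controls as age-matched, and the labels used here give neither age nor sex for each library.

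Microglia are the resident macrophages of the brain, and they survey the tissue with motile processes. Their survival depends on signalling through CSF1R, while purine receptors such as P2RY12 steer their processes towards ADP released by damaged cells. Microglia that turn towards damaged tissue are known in mice to lose part of the homeostatic programme, with less P2ry12 and more lysosomal genes. The other members work in sensing (TLR4, TIMD4), in immunoreceptor signalling (PTPRC, BLNK, INPP5D), in adhesion and the actin skeleton (APBB1IP, DOCK8) and in transcription (IKZF1).

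The libraries held 3011 to 8785 barcodes and 19182981 to 35898940 UMIs, and 1614 to 7022 nuclei per library passed the filters on genes and mitochondrial UMIs. Control 2 was the smallest library, and in each library 16.0 to 46.4% of barcodes lay above the upper limit of 2500 genes. A single long intergenic feature took 14.9 to 20.6% of UMIs in the control libraries and 22.8 to 29.0% in the ALP libraries. At most 18 barcodes were shared by any pair of libraries. Transcripts of the Y chromosome separated Control 1, Control 2 and ALP 2 from the other libraries, and this split lies across both groups.

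Nuclei were clustered without the members among the variable genes, of which 9 would otherwise have been used, and classes were named from other markers. Micro-like nuclei numbered 1605, or 5.69% of the nuclei kept, in 2 clusters of 1390 and 215 nuclei. Of the microglial naming markers, LRMDA had a UMI in 75.6%, ITGAM in 46.6%, DOCK2 in 32.8%, ARHGAP15 in 32.0% and CX3CR1 in 26.0% of them. CYBB had a UMI in 1.99% and CSF3R in 0.623%, whereas ITGB2 had none. Defining markers of lymphocytes were at or near 0, with 0 UMIs of THEMIS and MS4A1 and 2 each of CD3E and CD247, although CD2 had 672 and PRKCQ 100, while the others listed had 6 to 16. Of the border macrophage markers, CD163 and SIGLEC1 had 0 UMIs, but F13A1 had 168, in 3.36% of the nuclei, COLEC12 had 147, in 4.80%, MRC1 had 56 and LYVE1 had 33. The microglial marker C1QC had 2.

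All members were highest in Micro-like nuclei. This class held 3.97% of the UMIs of kept nuclei but 83.8% of the member UMIs. The median Micro-like nucleus had a UMI of 4 members, and 1.43% had none. In Oligo-like nuclei, a class that should lack these genes, the median was 0 and 96.9% had none. The median depths were close, at 1104 UMIs in Micro-like and 1328 in Oligo-like nuclei. These levels are described without a test, and a level is the gene's CPM, its UMIs scaled to an equal total in each library and class, averaged over the 6 libraries. Levels are not ranked between genes, since transcript lengths were not used.

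CSF1R, the receptor of CSF1 and IL34, had 702 UMIs in Micro-like nuclei and stood at a level of 259.9 ± 53.2 CPM (SD, n = 6), against 15.4 ± 4.204 CPM in Endo-like nuclei, the next class. It had a UMI in 33.1% of Micro-like and 0.414% of Oligo-like nuclei. IKZF1, a zinc finger transcription factor of the blood lineages also called Ikaros, had a mean level of 247.7 ± 83.8 CPM in Micro-like nuclei and 5.81 ± 12.3 CPM in the next class, again the Endo-like. For both genes the 6 Micro-like values lay above every value of the class that came next.

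TLR4, the receptor that senses bacterial lipopolysaccharide, had a level of 400.2 ± 63.3 CPM in Micro-like and 38.0 ± 30.1 CPM in Endo-like nuclei (n = 6 libraries each). TIMD4, a receptor for phosphatidylserine on dying cells, had 487.4 ± 130 CPM in Micro-like and 4.21 ± 5.08 CPM in Endo-like nuclei. TIMD4 had a UMI in 43.1% of Micro-like and 0.437% of Oligo-like nuclei, and TLR4 in 44.1% and 0.127%. As for CSF1R, neither gene overlapped between Micro-like nuclei and the next class.

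The members of immunoreceptor signalling followed the same order. PTPRC, the phosphatase CD45 found on all nucleated blood cells, had a UMI in 62.2% of Micro-like nuclei and a level of 713.5 ± 40.4 CPM, against 9.77 ± 9.84 CPM in Endo-like nuclei. BLNK, an adaptor that links the kinase SYK to downstream signalling, had a UMI in 59.4% and a level of 586.7 ± 217 CPM, against 4.86 ± 1.93 CPM in Astro-like nuclei. INPP5D, the inositol phosphatase SHIP1 that dampens immunoreceptor signals, had a UMI in 45.3% and a level of 378.7 ± 129.5 CPM, against 36.2 ± 25.2 CPM in Endo-like nuclei. Again the Micro-like range of each of these genes lay above that of the class which followed.

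APBB1IP, also called RIAM, couples the small GTPase RAP1 to talin and integrins. It was detected in 63.4% of Micro-like nuclei, more than any other member, with a level of 678.9 ± 214 CPM against 9.88 ± 4.29 CPM in InN-like nuclei. DOCK8, an activator of CDC42 in leukocytes, had 90 UMIs in Micro-like nuclei, of 139 in all kept nuclei, and was detected in 5.48% of Micro-like and 0.138% of Oligo-like nuclei. Its level was 31.1 ± 18.9 CPM in Micro-like and 4.01 ± 9.82 CPM in Epend-like nuclei, and these ranges overlapped. The Epend-like maximum of 24.05 CPM came from 1 UMI in ALP 3. Among Micro-like nuclei Control 2 had 0 UMIs of 97379, which allows up to 30.8 CPM. DOCK8 is thus the member whose pattern the depth resolves least, and antisense-named features of it held more UMIs (144) than the gene itself. Antisense-named features of the other members held 0 to 310 UMIs, and whether strand was used in counting is not stated.

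By the ratio of the Micro-like level to that of the next class, DOCK8 was lowest, at 7.77 against 8.59 for P2RY12. The DOCK8 ratio rests on 1 UMI in Epend-like nuclei. Over pooled libraries DOCK8 was at 36.25 CPM in Micro-like and 2.47 CPM in Epend-like nuclei. P2RY12 was there at 174.8 CPM in Micro-like and 17.15 CPM in ExN-like nuclei, so no order of these genes is read from the ratio. By its share of UMIs in Micro-like nuclei, P2RY12 was the least confined member. Its level was 171.6 ± 65.2 CPM in Micro-like nuclei and 19.98 ± 10.8 CPM in ExN-like nuclei (other excitatory neurons), and it was 14.4 CPM each in OPC-like and Gran-like nuclei. Of its UMIs in kept nuclei 45.6% lay in Micro-like nuclei, against 64.8 to 90.6% for the other 9 members. Among all barcodes, 58.1% of P2RY12 UMIs lay in nuclei over the gene limit, against 31.1 to 34.9% for the others. Of the UMIs of all features 60.4% lay there, so that P2RY12 was near this share and the other members were below it. Among the classes other than Micro-like, neighbours in the order of levels overlapped for every member, so that no full order among them is given. Classes further apart could still separate. For CSF1R every Endo-like value, 9.16 CPM or more, lay above those of Pyra-like (up to 6.21 CPM), InN-like, Oligo-like, ExN-like, OPC-like and Astro-like nuclei. The Endo-like range overlapped with those of Epend-like and Gran-like nuclei.

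**Figure D1:**
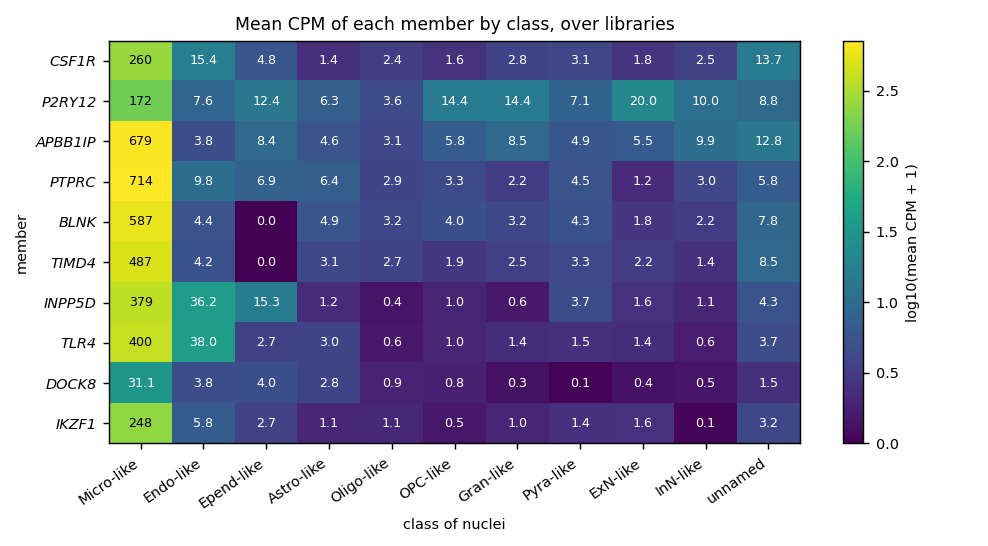
Level of each member (rows) in each class of nuclei (columns), as the mean over 6 libraries of CPM on a log scale. The Micro-like column is the highest for every gene. The P2RY12 row holds 19.98 CPM in ExN-like and 14.4 CPM in OPC-like and Gran-like nuclei, whose ranges overlap.

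In the human and mouse genomes P2RY12 lies inside MED12L, a subunit gene of the Mediator kinase module that neurons transcribe. MED12L was therefore set beside it, a choice made after its values were seen. In Micro-like nuclei there were 434 UMIs of P2RY12 and 338 of MED12L, or 128 P2RY12 UMIs per 100 of MED12L. In Gran-like nuclei there were 87 and 1067, or 8.15 per 100, and the ratio lay between 6.19 in Epend-like and 24.4 in Endo-like nuclei outside the Micro-like class. The Endo-like value rests on 10 and 41 UMIs. In nuclei over the gene limit it was 10.2 per 100. P2RY13, a related purine receptor gene of the same locus, had 60.7 UMIs per 100 of MED12L in Micro-like nuclei and 0.895 to 1.31 in the 4 neuronal classes. The ratio of P2RY12 to MED12L was thus far lower in every other class than in Micro-like nuclei. It was as low in Epend-like (6.19), Astro-like (7.26) and OPC-like nuclei (9.08) as in neurons. MED12L itself, over pooled libraries, was at 170.4 CPM in ExN-like, 170.2 CPM in OPC-like and 239.9 CPM in Epend-like nuclei. Whether UMIs counted for P2RY12 outside Micro-like nuclei come from MED12L transcripts was not tested.

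**Figure D2:**
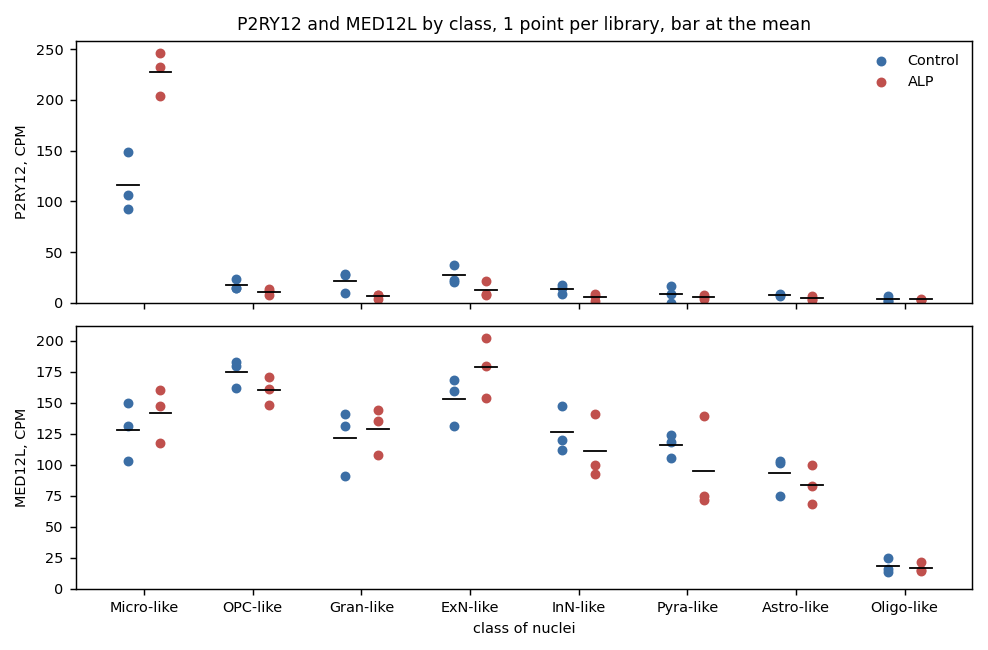
Levels (CPM) of P2RY12 and of MED12L by class of nuclei, in separate panels, with a point for each library and a bar at the mean. Endo-like, Epend-like and unnamed nuclei are not drawn. Over all libraries the Micro-like class holds 128 P2RY12 UMIs per 100 of MED12L, and the neuronal classes hold 6.72 to 10.1, a ratio that is not drawn.

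The genes whose pattern was most like that of the members were sought among 2316 named features with at least 200 UMIs in Micro-like nuclei. Likeness was Pearson's r with the mean log2(CPM + 1) of the members, over 66 sums by library and class, which share their libraries and depths. The closest were C1ORF162 (0.934), P2RY6 (0.911), LAT2 (0.909), LCP1 (0.909) and SPI1 (0.908). SPI1, the myeloid transcription factor PU.1, was itself used to name the class.

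The Micro-like clusters differed in depth and in the part of their UMIs that came from the members. The larger had a median of 1027 UMIs and 3.24% marked doublets, while the smaller had 3474 UMIs and 13.95%. Each member had a higher level in the larger cluster, for example 949 against 261 CPM for PTPRC, 335 against 110 CPM for CSF1R and 223 against 79.3 CPM for P2RY12. The shares of nuclei with a UMI were closer, at 62.7 against 59.5% for PTPRC, 33.7 against 29.3% for CSF1R and 21.65 against 21.86% for P2RY12. For BLNK they were 61.0 against 49.3%. These shares were not thinned to equal depth. The microglial naming markers, which are no members, summed to 4596 CPM in the larger and 1390 CPM in the smaller cluster. Markers of OPC (392 against 1642 CPM), InN (72.8 against 560), ExN (66.5 against 275), Pyra (428 against 615) and Epend (82.0 against 131) summed lower in the larger cluster. Those of Oligo (1745 against 1047 CPM), Gran (2605 against 2003), Astro (326 against 200.2), Endo (71.7 against 55.5) and Lympho (406 against 143) summed higher in it, like the members. Over both clusters the Gran sum came mostly from DOCK10 (2956 UMIs) and MAML2 (2409), against 152 for PROX1 and 79 for CALB1. The Lympho sum came mostly from CD2 (672 UMIs). These 2 sums are therefore no measure of granule neurons or lymphocytes. A further cluster, led by haemoglobin genes, held 400 nuclei with some microglial markers and was left out of the class.

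The share of Micro-like nuclei asks whether ALP hippocampus held more or fewer of the nuclei that express the members. It was 7.62, 2.79 and 4.30% in Control 1, 2 and 3 and 5.25, 6.63 and 4.81% in ALP 1, 2 and 3. The groups overlapped, with means of 4.90 ± 2.47% and 5.56 ± 0.953% (SD, n = 3 each). The difference of 0.661 percentage points was not larger than the spread between animals (two-sided exact permutation test, p = 0.8, where 0.1 is the smallest p that 3 against 3 libraries allow). It changed sign without Control 2, to -0.396 points. Micro-like nuclei were shallower in every ALP library (median depth 871.5, 1024 and 952.5 UMIs) than in every control library (1115, 1522 and 1342).

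Levels of the members within Micro-like nuclei were then compared between ALP and control TSs. Both clusters were summed, and their mix differed between libraries. The smaller cluster, where each member was lower, gave 52 of 535, 10 of 45 and 20 of 247 nuclei in Control 1, 2 and 3. In ALP 1, 2 and 3 it gave 37 of 206, 48 of 346 and 48 of 226. The part of this mix in the levels was not tested. UMIs were summed per library and tested with edgeR over 6480 genes, and a gene was called at an adjusted p under 0.05 and an absolute log2 fold change over 0.25. Of the 10 members 0 were called, against 35 of all genes tested (0.540%), of which 17 were higher and 18 lower in ALP. At an unadjusted p under 0.05 there were 2 members, P2RY12 and BLNK, and 876 genes, and DESeq2 called 0 members and 29 genes. The median log2 fold change was -0.03 over the members and 0.00 over all genes. In 1 of the 10 members the ALP and control values did not overlap, against 16.7% of all genes.

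P2RY12 was that member. Its normalised level was 155.9, 107.9 and 121.3 CPM in Control 1, 2 and 3 and 285.9, 222.1 and 268.6 CPM in ALP 1, 2 and 3. Every ALP library lay above every control library, with means of 128 ± 24.8 and 259 ± 33.0 CPM (SD, n = 3 each). The log2 fold change of 0.93 ± 0.23 (SE) missed the threshold after adjustment over all genes (edgeR, adjusted p = 0.0868). With any other single library left out the adjusted p was 0.0995 to 0.340. It passed without Control 2 (log2 fold change 0.88, adjusted p = 0.0469) and with no upper limit of genes (1.15, adjusted p = 0.0307). It also passed in the larger Micro-like cluster alone (1.15, adjusted p = 0.0431), an alternative chosen after seeing the data. In these fits 242 of 7286, 55 of 5030 and 42 of 4936 genes were called, in that order. With no upper limit the Micro-like class held 1380 nuclei, while a doublet-rich microglial cluster of 1154 was left out. The larger cluster held 1390, in like numbers per library. The alternatives with no upper limit and with the larger cluster alone therefore cannot be taken as separate checks. Over 18 alternatives the log2 fold change lay between 0.84 and 1.15 and the adjusted p between 0.0307 and 0.805. MED12L in the same nuclei, in CPM over all features and not normalised like P2RY12, was at 131, 103 and 150 CPM in the control libraries. In the ALP libraries it was at 161, 117 and 147 CPM, and the groups overlapped.

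The share of Micro-like nuclei with a P2RY12 UMI separated the groups in the same way. With each nucleus thinned to 1000 UMIs, it was 14.0, 10.1 and 10.4% in Control 1, 2 and 3 and 19.6, 19.6 and 19.1% in ALP 1, 2 and 3, after leaving out the 6 to 201 shallower nuclei of a library. Thinned to 500 UMIs, which left out none, it was 6.33 ± 2.21% in control and 13.3 ± 1.33% in ALP libraries, again without overlap. Unthinned it was 17.6 ± 2.76% and 26.8 ± 2.22%. In Micro-like nuclei the markers of Oligo summed to 1540 to 1694 CPM in control and 1302 to 1447 CPM in ALP libraries, and those of InN to 157 to 216 and 222 to 276 CPM, both without overlap between the groups. Their part in the P2RY12 values was not tested. The markers of the other classes overlapped between the groups, as did the summed microglial markers, at 2526 to 3762 CPM in control and 3368 to 3874 CPM in ALP libraries.

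**Figure D3:**
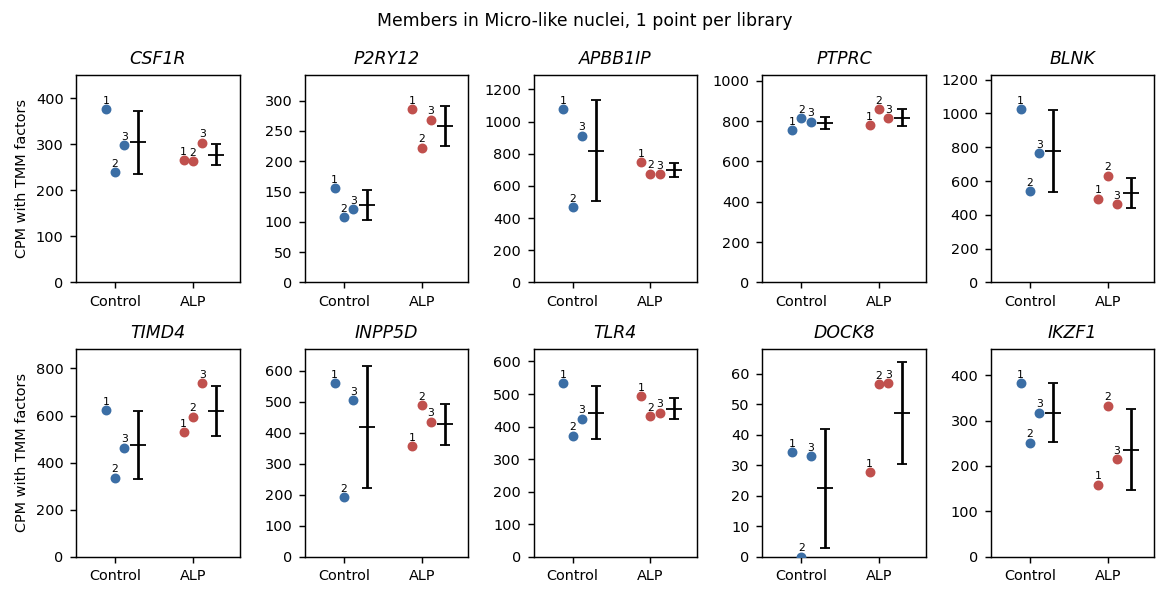
Normalised level (CPM) of each member in Micro-like nuclei, 1 point per library, for 3 control and 3 ALP TSs. P2RY12 is the member whose ALP points, 222.1 to 285.9 CPM, lie all above the control points, 107.9 to 155.9 CPM.

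CSF1R was measured at 376, 240 and 298 CPM in Control 1, 2 and 3 and at 266, 264 and 303 CPM in ALP 1, 2 and 3. The ranges overlapped and the log2 fold change was -0.19 ± 0.22 (edgeR, adjusted p = 0.749). The share of nuclei with a CSF1R UMI, thinned to 1000 UMIs, did separate the groups, at 25.2 ± 3.22% in control and 16.9 ± 4.62% in ALP libraries. At 500 UMIs it was 15.1 ± 4.03% and 14.9 ± 1.61% and overlapped, so that no order is read from it. Thinning to 1000 UMIs left out 201, 6 and 41 nuclei in Control 1, 2 and 3 and 121, 165 and 124 in ALP 1, 2 and 3. How the nuclei that stayed divided between the clusters was not counted. IKZF1 was at 382, 252 and 317 CPM in control and 159, 333 and 215 CPM in ALP libraries, which overlapped through ALP 2 (log2 fold change -0.45 ± 0.27, adjusted p = 0.479).

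The sensing receptors overlapped between the groups too. TLR4 was at 532, 372 and 425 CPM in Control 1, 2 and 3 and at 492, 432 and 442 CPM in ALP 1, 2 and 3 (log2 fold change 0.00 ± 0.21, edgeR, adjusted p = 0.998). TIMD4 was at 622, 336 and 463 CPM in control and 528, 595 and 736 CPM in ALP libraries, with the highest value in ALP 3 and the lowest in Control 2 (log2 fold change 0.33 ± 0.24, adjusted p = 0.569). For TLR4 the share of nuclei with a UMI, thinned to 1000 UMIs, was lower without overlap in ALP (27.7 ± 3.63% against 34.5 ± 2.99%), while at 500 UMIs it was 22.7 ± 2.00% against 21.0 ± 3.32% and overlapped. As for CSF1R, no order is read from these shares.

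Of the immunoreceptor group, BLNK came nearest to a call. It was at 1025, 539 and 766 CPM in Control 1, 2 and 3 and at 496, 631 and 464 CPM in ALP 1, 2 and 3, so that only Control 2 lay within the ALP range. The log2 fold change was -0.58 ± 0.25 (edgeR, adjusted p = 0.313). PTPRC differed little between any libraries, at 756, 815 and 797 CPM in control and 778, 859 and 815 CPM in ALP (log2 fold change 0.06 ± 0.20, adjusted p = 0.945). INPP5D was at 559, 192 and 504.5 CPM in control and 357, 488 and 436 CPM in ALP libraries, so that the ALP values lay above Control 2 and below Control 1 and Control 3 (log2 fold change -0.06 ± 0.29, adjusted p = 0.963).

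APBB1IP was at 1077, 467 and 912 CPM in Control 1, 2 and 3 and at 747, 677 and 673 CPM in ALP 1, 2 and 3. The control values spread on both sides of the ALP values (log2 fold change -0.28 ± 0.26, edgeR, adjusted p = 0.674). DOCK8 had 26, 0 and 12 UMIs in control and 7, 27 and 18 UMIs in ALP libraries, too few to show a difference of the size fitted (log2 fold change 0.69 ± 0.45, adjusted p = 0.524).

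**Figure D4:**
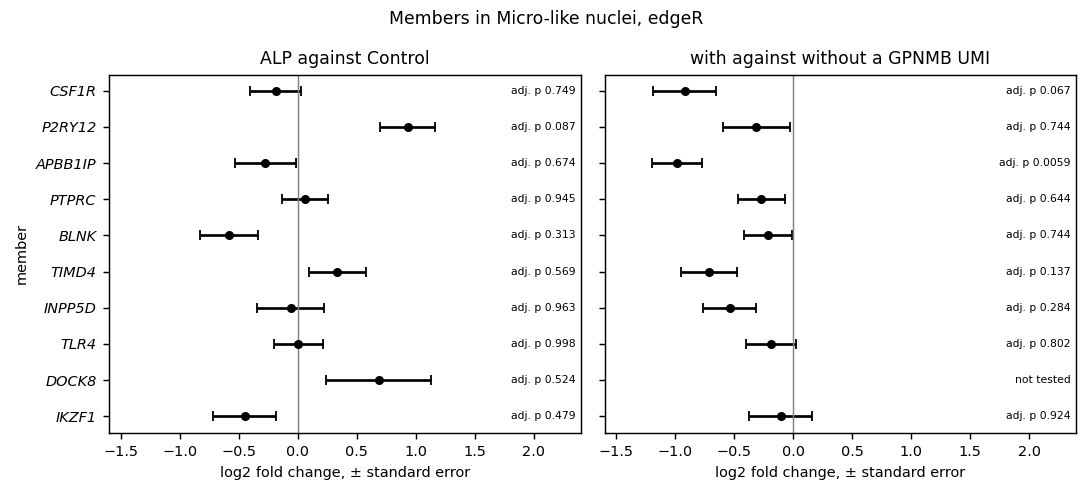
Log2 fold change of the members in Micro-like nuclei with standard errors from edgeR. The left panel shows ALP over control, and the right panel nuclei with over those without a GPNMB UMI, a split described below. On the left P2RY12 is at 0.93 ± 0.23 and BLNK at -0.58 ± 0.25, and 0 of the 10 members were called. On the right APBB1IP, at -0.98 ± 0.21, is the 1 member called of 9 tested.

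Genes that work with the members were listed by pathway and read from the same fit. Of the CSF1 axis and myeloid transcription factors, 10 of 13 were tested and 0 called in either direction, with a median log2 fold change of -0.10. MEF2C and MEF2A, transcription factors active in microglia, had the most UMIs, with log2 fold changes of 0.09 ± 0.23 and -0.29 ± 0.23. Of the purine and surveillance receptors beside P2RY12, 5 of 12 were tested and 0 called, with a median of -0.40. These include CX3CR1, the receptor of fractalkine (0.27 ± 0.27), and KCNK13, the potassium channel THIK-1 of microglia (-0.51 ± 0.29). Among the genes of this list that were not tested, TMEM119 had 0 UMIs in Micro-like nuclei and SLC2A5 had 9.

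Of the TLR4 pathway 8 of 17 genes were tested and 0 called, with a median log2 fold change of -0.40, and its most abundant genes were the kinase genes IRAK2 (-0.19 ± 0.23) and IRAK3 (0.18 ± 0.24). Of the phosphatidylserine receptors and phagocytosis genes that stand beside TIMD4, 10 of 14 were tested and 0 called, with a median of -0.09. Their most abundant genes were MERTK, a receptor kinase for the uptake of dying cells (-0.12 ± 0.22), and ELMO1, an adaptor of the same process (-0.35 ± 0.28). Of the immunoreceptor genes, 10 of 15 were tested and 0 called, with a median of -0.14, among them the kinase LYN (-0.58 ± 0.25) and the adaptor FYB1 (-0.03 ± 0.23). Of the integrin and actin partners of APBB1IP and DOCK8, 12 of 16 were tested and 0 called, with a median of -0.18, led in UMIs by DOCK10 (-0.01 ± 0.20) and WIPF1 (-0.30 ± 0.24).

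The leukocyte antigens beside PTPRC held a call. Of 12 listed, 9 were tested and 1 rose, LAPTM5, a lysosomal membrane protein of blood cells. It was at 66.0, 71.9 and 74.4 CPM in Control 1, 2 and 3 and at 242, 151 and 148 CPM in ALP 1, 2 and 3, without overlap (log2 fold change 1.34 ± 0.27, edgeR, adjusted p = 0.0423). The median of this list was 0.61. LAPTM5 was also a naming marker of the class, and its call was lost without each of Control 1, Control 3, ALP 1, ALP 2 and ALP 3, with adjusted p up to 0.175. It held in 6 of 18 alternatives.

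Of the list of activated or disease-associated microglia, which was checked beside the members, 5 of 11 genes were tested and 2 rose. GPNMB, a glycoprotein of lipid-laden macrophages, was at 100.4, 204 and 176 CPM in control and 318, 1096 and 752 CPM in ALP libraries (log2 fold change 2.31 ± 0.40, edgeR, adjusted p = 0.0385). CTSD, the lysosomal protease cathepsin D, was at 217, 156 and 149 CPM in control and 508, 363 and 518 CPM in ALP libraries (1.35 ± 0.24, adjusted p = 0.0385). Both were without overlap, and the summed list was at 494 to 527 CPM in control and 974 to 1735 CPM in ALP libraries. The call of GPNMB was lost without Control 1, Control 3, ALP 2 or ALP 3 (adjusted p up to 0.159) and that of CTSD without Control 3, ALP 1 or ALP 3 (up to 0.206). They held in 10 and 11 of 18 alternatives. Earlier results of these data had shown such genes, so they are no independent support.

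Markers of other blood cells were read beside the members. Of the border macrophage genes, 2 of 7 were tested and 0 called, namely F13A1 (log2 fold change -1.07 ± 0.46) and COLEC12 (0.77 ± 0.36), and the list summed to 144 to 191 CPM in control and 95.5 to 194 CPM in ALP libraries. Of the lymphocyte genes, 2 of 11 were tested and 0 called, namely CD2 (0.41 ± 0.23) and PRKCQ (-0.65 ± 0.44), and the list summed to 232 to 357 CPM and 294 to 413 CPM. Both sums overlapped between the groups.

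In the sum of all kept nuclei of a library, edgeR called 0 of 10 members and 0 of 22749 genes (0%), with 5323 genes at an unadjusted p under 0.05, while DESeq2 called 0 members and 1740 genes. P2RY12 was there at 14.6, 13.3 and 15.7 CPM in Control 1, 2 and 3 and at 16.2, 15.7 and 14.8 CPM in ALP 1, 2 and 3 (log2 fold change 0.10 ± 0.19). The groups overlapped, unlike in Micro-like nuclei. In such sums fewer cells of a type and less RNA per cell cannot be told apart.

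Outside Micro-like nuclei, P2RY12 passed the filter on counts in 5 classes and APBB1IP in 1, and 0 of these were called. No member passed it in Oligo-like or Astro-like nuclei, where 4.80% and 0.348% of genes were called, or in Endo-like and Epend-like nuclei, where 0% were. In Gran-like nuclei, the granule neurons of the dentate gyrus, P2RY12 had 30, 6 and 27 UMIs in Control 1, 2 and 3 and 8, 6 and 10 UMIs in ALP 1, 2 and 3. These gave 9.57, 29.4 and 28.6 CPM against 8.96, 4.46 and 8.49 CPM, without overlap, though Control 1 lay close to the ALP values (log2 fold change -1.41 ± 0.53, edgeR, adjusted p = 0.189, where 1.59% of genes were called). Without Control 1 it passed (-1.99, adjusted p = 0.0295), in a fit where 535 of 10198 genes were called, against 164 of 10291 with all libraries. Without Control 3 it was at -0.84 (adjusted p = 0.575) and without ALP 2 at -1.12 (adjusted p = 0.379).

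In InN-like, ExN-like, OPC-like and Pyra-like nuclei the log2 fold changes of P2RY12 were -1.04 ± 0.44, -0.75 ± 0.53, -0.64 ± 0.40 and -0.45 ± 0.56, with adjusted p of 0.232, 0.508, 0.495 and 0.793 by edgeR. In these classes 0%, 0.182%, 1.62% and 0% of genes were called. APBB1IP in InN-like nuclei had a log2 fold change of 0.75 ± 0.42 (adjusted p = 0.356). The fitted direction of P2RY12 was thus opposite in Micro-like nuclei and in each of the 5 other classes tested, at counts of 63 UMIs or fewer per group in Gran-like nuclei. Pyra-like nuclei had 15, 7 and 0 UMIs in control and 10, 18 and 14 in ALP libraries, and their fold change was smaller than its standard error. ExN-like nuclei had 4, 6 and 13 against 13, 4 and 5 UMIs. These classes share the same libraries, so their directions are not independent.

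Since GPNMB was among the genes called, the members were also compared between Micro-like nuclei with and without a GPNMB UMI, within each library. Those with a UMI numbered 14, 5 and 15 in Control 1, 2 and 3 and 20, 59 and 36 in ALP 1, 2 and 3, or 149 of 1605 (9.28%). A nucleus without a GPNMB UMI may still express the gene, and those with one were deeper, with medians of 1093 to 3307 UMIs against 855 to 1399. With the library as a block, 1 of 9 tested members was called by edgeR, against 32 of 1588 genes (2.02%, of which 18 were higher and 14 lower), and DOCK8 was not tested.

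That member was APBB1IP. Nuclei with a GPNMB UMI had 357, 251, 530, 417, 374 and 242 CPM in Control 1, 2 and 3 and ALP 1, 2 and 3, and those without had 1047, 430, 819, 677, 674 and 674 CPM. It was lower in 6 of 6 libraries, with 95 and 1814 UMIs in all (log2 fold change -0.98 ± 0.21, edgeR, adjusted p = 0.00585). The call held in 9 of 10 alternatives and was lost when nuclei were thinned to 1000 UMIs, where 864 genes could be tested (-0.72, adjusted p = 0.313). This thinning was a single random draw, and nuclei were split again by whether a GPNMB UMI stayed. Thinning left 8, 4, 12, 9, 31 and 16 nuclei with a GPNMB UMI, in the same order of libraries. Control 2, with 4, was under the minimum of 5 and was left out of that fit. It was also left out in the larger cluster alone, where it had 3. Other markers moved with the split. Border macrophage markers summed to 341 CPM in nuclei with a GPNMB UMI and 141 CPM in those without, Oligo markers to 1846 and 1499 CPM, Pyra markers to 301 and 507 CPM, Endo markers to 44.0 and 69.7 CPM, and the microglial naming markers to 3182 and 3698 CPM. Their part in the result was not tested.

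The other members had negative log2 fold changes and were not called. CSF1R was lower in 5 of 6 libraries (-0.92 ± 0.27, edgeR, adjusted p = 0.0666) and passed without ALP 1 (-1.15, adjusted p = 0.0262). It passed in 3 of 9 alternatives, with adjusted p up to 0.243. TIMD4 was lower in 4 of 6 (-0.71 ± 0.24, adjusted p = 0.137) and passed without Control 2 (-0.91, adjusted p = 0.0330), and in 3 of 10 alternatives in all, with adjusted p up to 0.495. INPP5D was at -0.54 ± 0.23 (adjusted p = 0.284), while P2RY12, PTPRC, BLNK, TLR4 and IKZF1 lay between -0.31 and -0.11, with adjusted p from 0.644 to 0.924. The median over all genes tested was 0.00.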

How the data were processed

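Per the labels and methods, nuclei were isolated from frozen hippocampus and sequenced with the 10x Genomics 3′ chemistry. The authors deposited raw counts (UMIs per feature and barcode) written by Cell Ranger, for which the submitters' processing notes give version 3.1.0 and the matrix headers 6.1.2, against the TreeshrewDB annotation. The genome build and the use of strand are not given in the sources used here.

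Nuclei with at least 200 and under 2500 genes and under 5% mitochondrial UMIs were kept, scaled to 10000 UMIs and clustered with scanpy 1.11.5 (2000 variable genes without the members, 30 components, 20 neighbours, leidenalg 0.10.2, resolution 2). A cluster took its name from at least 3 markers in at least 3% of nuclei at a fold of at least 1.5. Parts of the naming rule were amended once the data had been seen, among them the one that left the haemoglobin-led cluster unnamed. Doublets were marked by simulated pairs and kept, but clusters with at least 15% marked stayed unnamed.

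UMIs were summed per library and class (at least 10 nuclei) and the sums compared in R 4.3.3 with the quasi-likelihood test of edgeR 4.0.16 (TMM, minimum count 10, Benjamini-Hochberg over all genes tested). The standard error is the log2 fold change over the root of F. CPM of a gene beside its edgeR result are scaled to the UMIs of the genes tested and carry TMM factors. All other CPM are scaled to the UMIs of all features, without these factors. These include the levels by class, the sums of lists, MED12L and the split by GPNMB. Values on these unlike scales are not to be compared. DESeq2 1.42.0 was an alternative. Thinned shares of nuclei with a UMI are exact expectations. The thinned split by GPNMB rests on a single random draw, which was not repeated. The upper limit behind a count of 0 is 3 counts, for counting error only. Shares are given beside those in Oligo-like nuclei, a class that should lack the members; free RNA, doublets and misassigned nuclei were not separated there. The tests were tried on simulated counts.

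The members and lists were chosen with earlier results of these data known. All members are named. Of each list the genes called are named, or else the 2 tested with the most UMIs, and of genes of like pattern the 5 with the highest r. Alternatives were normalization, the count filter, DESeq2, the replicate block, each library left out, filters on nuclei, clustering and thinning. Nothing in the labels says that replicate numbers pair animals, and same-numbered libraries did not deviate together (r = -0.0937 to -0.0295 in Micro-like nuclei). Each library is 1 animal. All 10 members matched a protein-coding symbol of the RefSeq table of TupChi_1.0, used for names only. Sequences of the members were not analysed here.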

Additional observations from a re-analysis of the deposited data

Results flagged for a closer look

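P2RY12 was singled out because its difference between ALP and control TSs differed between classes of nuclei. In a fit over both sums of each library, with the library as a block, the log2 fold change in Micro-like nuclei exceeded that in Gran-like nuclei by 2.13 ± 0.47 (edgeR, adjusted p = 0.108 over 10243 genes, of which 3 were called), so the difference did not pass after adjustment. This test was added after seeing the data. The rule that picked P2RY12 asked for values without overlap in both classes and in opposite directions. In Micro-like nuclei 3 of 3 ALP libraries lay above every control library, and in Gran-like nuclei 3 of 3 lay below, as that rule requires. The fit used the same values, so neither is independent support. Of all genes 16.7% did not overlap in Micro-like nuclei, and that share was not computed in Gran-like nuclei.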

How the results depend on the processing

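The share of Micro-like nuclei reversed to -0.611 points with no upper limit of genes and the doublet-rich microglial cluster added (p = 0.5, exact permutation test), and lay between -0.396 and 2.02 points with 1 library left out. The members called in Micro-like nuclei became 1 with no upper limit of genes and 1 in the larger cluster alone, and 0 to 1 with 1 library left out. In each case the member was P2RY12. All genes called there, 35, became 226 without the filter on low counts, 55 with no upper limit, 20 at resolution 1, 13 with marked doublets removed, 9 with a term for the split by Y-linked transcripts, 6 with no limit and the doublet-rich cluster, 0 with the haemoglobin-led cluster and 0 to 242 with 1 library left out (0 without Control 3 and 242 without Control 2). Members called in other classes were 0 to 1 with 1 library left out. The 1 was P2RY12 in Gran-like nuclei without Control 1, where 535 of 10198 genes were called. Members called by GPNMB became 0 when thinned (28 of 864 genes called) and 5 without the filter (150 of 32249). They became 2 with doublets removed (26 of 1470) and 2 in the larger cluster (79 of 2161). With 1 library left out they were 1 to 2, where 16 of 1490 genes (without ALP 2) to 45 of 3355 (without Control 2) were called. Without the filter the median of all genes moved to -0.64, and relative to it APBB1IP was at -0.90. The cause of these changes was not tested.

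Among members in Micro-like nuclei that were not called, signs turned with no upper limit, in the larger cluster and with the doublet-rich cluster, in that order, for CSF1R (0.14, 0.12, 0.49), APBB1IP (0.025, 0.0028, 0.40) and INPP5D (0.15, 0.15, 0.55). The alternatives with no upper limit and with the larger cluster alone held 1380 and 1390 nuclei, in like numbers per library. They cannot be taken as separate checks. With the doublet-rich cluster BLNK came to 0.0067 and IKZF1 to 0.34. TLR4 was -0.028 with members among the variable genes. With 1 library left out CSF1R lay between -0.27 and 0.0082, INPP5D between -0.29 and 0.17, TLR4 between -0.066 and 0.17. Thinned, BLNK (0.10), TLR4 (0.15) and IKZF1 (0.32) turned positive by GPNMB, and IKZF1 lay between -0.50 and 0.088 with 1 library left out. Alternatives on the haemoglobin-led and doublet-rich clusters, the larger cluster and the Y-linked term were chosen after seeing the data.

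The replicate number did not pair the libraries. With it as a block, 0 genes and 0 members were called in Micro-like nuclei, P2RY12 was at 1.01 (adjusted p = 0.248 by edgeR) and INPP5D at 0.037. With 3 libraries a group and 45 nuclei in Control 2, differences of the size of the standard errors given were not detectable at this depth.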
